A study of Mus musculus with 20 samples.

Results

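Tight junction transcripts were measured in mouse pancreatic islets before and during pregnancy, with Cldn8 at the centre. The 10 genes were chosen by name, without a threshold on their values, from 19938 genes that the array reports: the claudins Cldn8, Cldn1, Cldn2, Cldn3, Cldn4, Cldn7, Cldn10 and Cldn12, the scaffold gene Tjp1 and the occludin gene Ocln. Among the probe sets annotated to a gene alone, the one of highest mean level on the 20 arrays was read, and all 10 genes were measured. Cldn8 belongs to the pregnancy signature that the study drew from islets, so its direction in the islets is not independent evidence.

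Claudins are membrane proteins that join neighbouring epithelial cells at the tight junction and set which ions and how much water pass between cells. Some of them, such as Cldn8, Cldn1, Cldn3, Cldn4 and Cldn7, are mostly known as sealing claudins, whereas Cldn2 and Cldn10 form pores. Tjp1 encodes ZO-1, which ties claudins to the actin skeleton, and Ocln encodes another membrane protein of the same junction. Islet endocrine cells carry tight junctions, and kidney tubules are built from segments that differ in their claudins: Cldn2 and a form of Cldn10 are known from the proximal tubule, and Cldn8 from the distal nephron and collecting duct. Transcripts of a graft taken from under the kidney capsule can therefore include those of kidney.

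Non-transplanted islets came from female C57bl6/J mice that were either not pregnant (NP, n = 4) or pregnant for 12.5 days (P12.5, n = 4). Islet grafts came from NP and P12.5 female C57BL/6J hosts, with islets of female donors (n = 3 in each state) or male donors (n = 3 in each state). Graft hosts were 8 to 12 weeks old and had been made diabetic with streptozotocin, a toxin of beta cells. They received islets of donors about 12 weeks old under the kidney capsule, and they were mated only if the graft had restored their blood glucose. For the mice that kept their islets in the pancreas, the sources used here give no age. The labels mark the islet arrays as a reanalysis, so array batch, streptozotocin and transplantation cannot be told apart in any comparison of grafts with islets. No animals are named in the labels, which speak of biological replicates, and the p-values therefore reflect the spread between these samples only.

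The study also measured Cldn8 by quantitative RT-PCR. The oligonucleotides of that assay are shown because they define the Cldn8 transcript that the study followed outside the array; they are not the probes of the array. Each is given 5′ to 3′ and in lower case, with no part marked.
Cldn8 forward primer: tggtggatgtggccctaaa
Cldn8 probe: gagggcttctcccagctcgcg
Cldn8 reverse primer: cgctgtggtccagcctatgt

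Values are log2 expression levels from robust multichip analysis, rounded to 1 decimal by the authors. A difference of 1 on this scale is a doubling, and levels can be compared between arrays for 1 gene but not between genes. The array medians lay between 5.9 and 6.0 and the lower quartiles between 4.7 and 4.9, so a gene near the lower quartile is close to the floor of the array and its fold change is not an exact size. The top of NP islet array 1 reached 13.4, against 14.4 to 14.6 on the other 19 arrays. Islet markers were high on all arrays, with a mean over 12 genes of 11.2 to 11.7 in islets and 10.96 to 11.6 in grafts. Differences were tested with limma over all 35511 probe sets, and a gene counted as called if its adjusted p was under 0.05 and its fold change at least 1.5. In these bulk samples, a change in the number of cells that express a gene and a change in the RNA per cell cannot be told apart.

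Cldn8 was the 1 gene of the 10 that was called with pregnancy, and it rose in islets as well as in grafts of either donor sex. It was called up in each of these comparisons, while the other 9 genes were called in none of them. That count depends on the fit: with all 20 arrays in 1 fit, 4 of the 10 genes were called in female grafts and 4 over both donor sexes. In NP islets the levels of Cldn8 were 4.9, 5.2, 4.8 and 5.1, and in P12.5 islets they were 9.0, 9.5, 9.6 and 9.2. The groups did not overlap, with the lowest P12.5 array at 9.0 and the highest NP array at 5.2. The rise was 4.33 ± 0.14 on the log2 scale (SE, n = 4 and 4, 20-fold, adjusted p = 2.71e-06). The NP islets lay at the lower quartile of the arrays, so 20-fold is not an exact size.

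The same gene rose in grafts of both donor sexes. In NP female grafts Cldn8 stood at 6.1, 5.8 and 6.2, and in P12.5 female grafts at 9.5, 9.1 and 8.6. The female graft arrays of the NP and P12.5 states did not overlap, and the difference was 3.03 ± 0.30 (n = 3 and 3, 8.19-fold, adjusted p = 0.00201). In NP male grafts the levels were 4.7, 5.4 and 6.0, the widest spread of the 6 groups (SD 0.65), and in P12.5 male grafts they were 8.7, 8.9 and 8.6. Here too the states did not overlap, and the difference was 3.37 ± 0.30 (n = 3 and 3, 10.3-fold, adjusted p = 0.00145). Over both donor sexes the rise was 3.20 ± 0.21 (9.19-fold, adjusted p = 4.97e-05).

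Immune markers moved with pregnancy in the male grafts. The mean of 9 such markers was 7.89 to 8.29 in NP and 7.31 to 7.77 in P12.5 male grafts, without overlap, and 2 of the 9 were called lower. In female grafts it was 7.26 to 7.71 and 7.09 to 7.94, with 0 called. Of all probe sets, 0.932% were called in male and 1.7% in female grafts. The slope of Cldn8 on the immune mean within the graft groups was -1.13 ± 0.31 (unadjusted p = 0.00392 from limma, adjusted p = 0.119). With the immune mean as a covariate the rise of Cldn8 was 2.77 ± 0.26 in male grafts (adjusted p = 0.00431), 3.06 ± 0.20 in female grafts (adjusted p = 0.000245) and 2.92 ± 0.16 over both (adjusted p = 3.76e-05). Because the male states did not overlap in immune mean, the male value rests on a slope carried across that gap. The part of immune cells in the rise of Cldn8 was not tested.

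Read against all probe sets, 1 of 10 genes was called in each pregnancy comparison, where the share of all probe sets called was 0.724% for islets, 1.7% for female grafts, 0.932% for male grafts and 3.96% over both donor sexes. The members were chosen with their results known, so these counts describe the set and test nothing about it. The median log2 change of the 10 genes was 0 in islets, where the median of all genes was also 0. It was -0.32 in female grafts against 0.033 for all genes, and -0.13 in male grafts against 0.

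**Figure D1:**
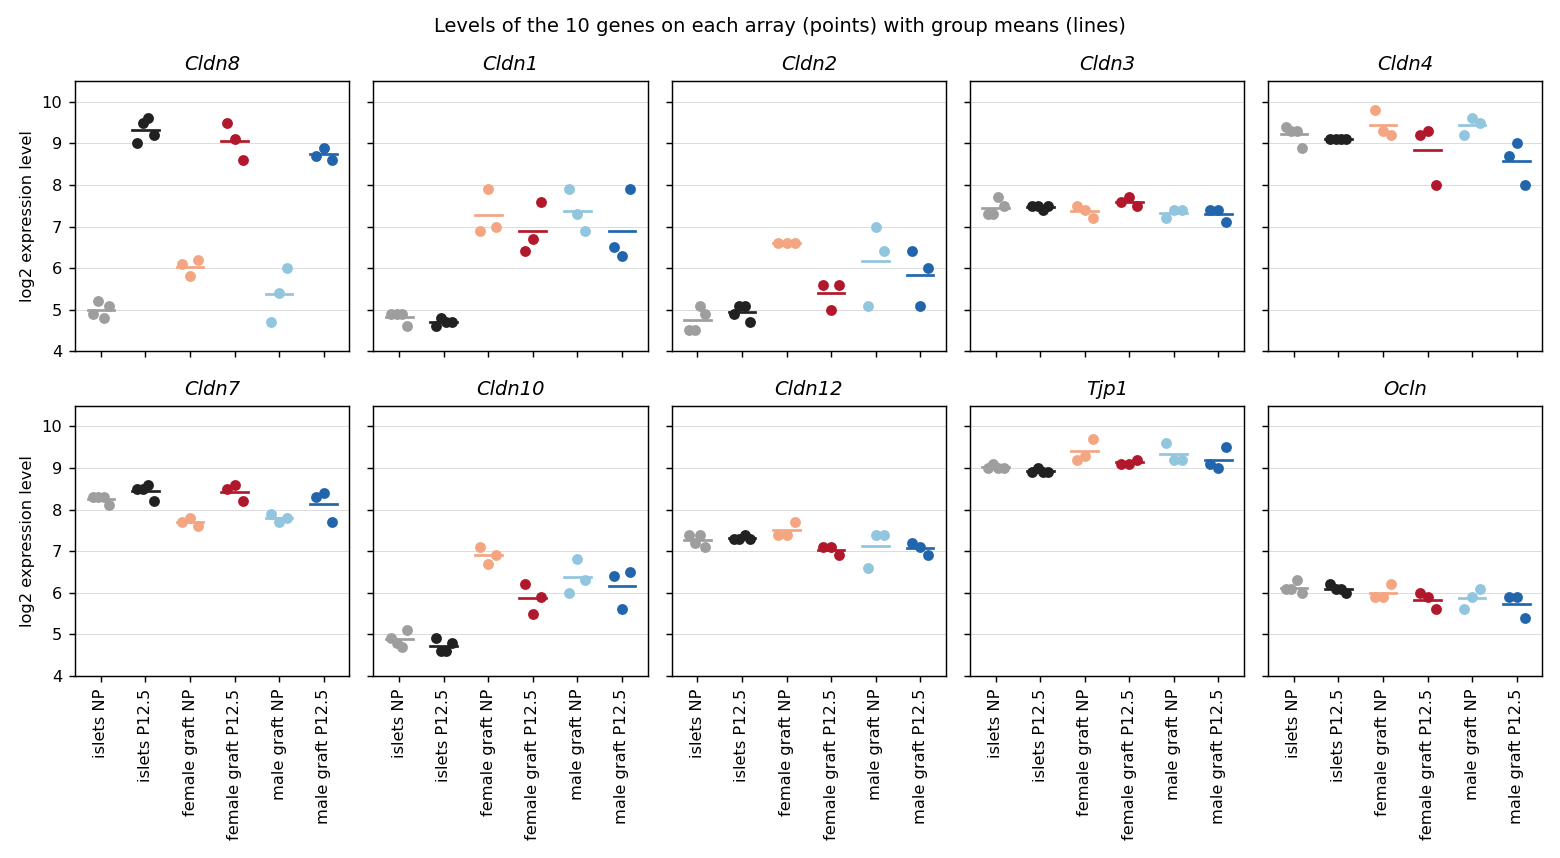
Log2 expression level of each of the 10 genes (y axis) on the 20 arrays, by group (x axis); points are arrays and lines are group means. Cldn8 lies between 4.7 and 6.2 in the NP groups and between 8.6 and 9.6 in the P12.5 groups, whereas Cldn1 and Cldn10 are higher on all 12 graft arrays than on all 8 islet arrays.

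By group mean, Cldn8 was highest in P12.5 islets (9.33 ± 0.28, SD), followed by P12.5 female grafts (9.07 ± 0.45) and P12.5 male grafts (8.73 ± 0.15). The NP groups followed, with female grafts at 6.03 ± 0.21, male grafts at 5.37 ± 0.65 and islets at 5.0 ± 0.18. No neighbours within a state were called different: P12.5 female grafts differed from P12.5 islets by -0.26 (adjusted p = 0.561), male from female grafts by -0.33 in P12.5 hosts and -0.67 in NP hosts (adjusted p = 0.977 for each), and NP male grafts from NP islets by 0.37 (adjusted p = 0.288). The gap between the lowest P12.5 group and the highest NP group was the widest step in this order.

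Donor sex did not separate the members at the threshold used. The response of Cldn8 in male grafts exceeded that in female grafts by 0.33 ± 0.42 (adjusted p = 0.98), an interval that includes differences in either direction. For the interaction of donor sex with pregnancy limma called 0 of the 10 genes and 0% of all probe sets, with 1772 probe sets and 0 of the 10 genes at an unadjusted p under 0.05. Between male and female grafts it called 0 of the 10 in NP hosts, where 0.0141% of all probe sets were called, and 0 of the 10 in P12.5 hosts, where 0.0113% were called. At an unadjusted p under 0.05 there was 1 gene in each of the latter: Cldn8 in NP hosts (-0.67 ± 0.30, male minus female) and Cldn3 in P12.5 hosts (-0.30 ± 0.12). The shares of all probe sets at that level were 5% in NP hosts and 3.58% in P12.5 hosts.

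The remaining sealing claudins did not change with pregnancy in islets at this threshold. Cldn3, a sealing claudin of many simple epithelia, covered 7.3 to 7.7 on the 8 islet arrays and 7.1 to 7.7 on the 12 graft arrays, the narrowest range over the 20 arrays among the 8 claudins. Its pregnancy difference was 0.025 ± 0.098 in islets, while female grafts had 0.23 ± 0.12 and male grafts -0.033 ± 0.12. No pair of groups that differed in pregnancy alone was separated for Cldn3.

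Cldn4, which like Cldn3 binds the enterotoxin of Clostridium perfringens, read 9.4, 9.3, 9.3 and 8.9 in NP islets and 9.1 on all 4 P12.5 islet arrays. In female grafts it read 9.8, 9.3 and 9.2 in NP hosts and 9.2, 9.3 and 8.0 in P12.5 hosts. In male grafts it read 9.2, 9.6 and 9.5 in NP hosts and 8.7, 9.0 and 8.0 in P12.5 hosts. The lowest value in each P12.5 graft group was array 3, and only in male grafts were the states apart. In both groups array 3 also had the highest means of stromal and mesothelial markers (11 genes, 9.48 and 10.07) and of immune markers (7.94 and 7.77). The same held for endothelial (7.48 and 7.87) and glomerulus markers (6.92 and 7.0), and its islet marker mean was the lowest (11.26 and 10.96). The change of Cldn4 over both donor sexes was -0.73 ± 0.24 and was not called (adjusted p = 0.0665). With the stromal and mesothelial mean as a covariate it was -0.59 ± 0.21 (adjusted p = 0.0871), and with the endothelial mean -0.55 ± 0.25 (adjusted p = 0.188). With the immune mean, in which NP and P12.5 male grafts did not overlap, it was -0.99 ± 0.23 and was called (adjusted p = 0.0203). It was also called with array medians subtracted, with all 20 arrays in 1 fit and with the replicate block (adjusted p = 0.0497, 0.0154 and 0.0454). The cause of the change was not tested.

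Cldn7, a claudin that also lies along the lateral membrane and binds the adhesion protein Epcam, had the smallest adjusted p among the genes that were not called in female grafts. Its levels were 8.3, 8.3, 8.3 and 8.1 in NP islets and 8.5, 8.5, 8.6 and 8.2 in P12.5 islets, which overlapped (change 0.20 ± 0.099, adjusted p = 0.477). Female grafts read 7.7, 7.8 and 7.6 in NP hosts and 8.5, 8.6 and 8.2 in P12.5 hosts, without overlap. Male grafts read 7.9, 7.7 and 7.8 against 8.3, 8.4 and 7.7, where P12.5 array 3 fell within the NP range. The P12.5 minus NP difference was 0.73 ± 0.18 in female grafts (adjusted p = 0.0565) and 0.33 ± 0.18 in male grafts (adjusted p = 0.318). Over both donor sexes it was 0.53 ± 0.12 with an adjusted p of 0.021, below the fold minimum at 1.45-fold. The P12.5 grafts lay nearer to the islets than the NP grafts did: NP female grafts differed from NP islets by -0.55 ± 0.14 (adjusted p = 0.01, 1.46-fold, below the fold minimum) and P12.5 female grafts from P12.5 islets by -0.017 ± 0.14. The former difference passed the fold minimum and was called with renewed quantile normalization (-0.61) and without NP islet array 4 or NP female graft array 2 (-0.60 each).

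Cldn1, the claudin of the epidermal barrier that in kidney is known from the capsule around the glomerulus, was low in islets at 4.9, 4.9, 4.9 and 4.6 in the NP state and 4.6, 4.8, 4.7 and 4.7 at P12.5. In grafts it reached 6.9, 7.9 and 7.0 (NP female), 6.4, 6.7 and 7.6 (P12.5 female), 7.9, 7.3 and 6.9 (NP male) and 6.5, 6.3 and 7.9 (P12.5 male). The lowest graft array was above the highest islet array, and within grafts the states overlapped. Pregnancy differences were -0.37 ± 0.46 in female grafts and -0.47 ± 0.46 in male grafts, with adjusted p of 0.696 and 0.604.

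The pore-forming members Cldn2 and Cldn10 were low in islets, higher in grafts, and lower in P12.5 than in NP female grafts without being called. Cldn2, which passes cations and water and is known from the proximal tubule, lay at 4.5, 4.5, 5.1 and 4.9 in NP islets and 4.9, 5.1, 5.1 and 4.7 in P12.5 islets, near the lower quartile of the arrays. In female grafts it was 6.6 on all 3 NP arrays and 5.6, 5.0 and 5.6 on the P12.5 arrays. Male grafts had 5.1, 7.0 and 6.4 against 6.4, 5.1 and 6.0. The states did not overlap in female grafts and overlapped in male grafts. The P12.5 minus NP difference was -1.20 ± 0.43 in female grafts (2.30-fold, adjusted p = 0.141) and -0.33 ± 0.43 in male grafts (adjusted p = 0.707), and neither was called.

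Cldn10, whose isoforms conduct either anions or cations in different tubule segments, gave 4.9, 4.8, 4.7 and 5.1 in NP islets and 4.9, 4.6, 4.6 and 4.8 in P12.5 islets. Female grafts gave 7.1, 6.7 and 6.9 in NP hosts and 6.2, 5.5 and 5.9 in P12.5 hosts, and male grafts gave 6.0, 6.8 and 6.3 against 6.4, 5.6 and 6.5. Again the female graft states did not overlap and the male ones did. The difference was -1.03 ± 0.27 in female grafts (2.05-fold, adjusted p = 0.0714) and -0.20 ± 0.27 in male grafts (adjusted p = 0.725). Cldn10 has a further probe set of its own, which differed from this one by at most 0.3 on any array. Neither was matched to an isoform here.

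Cldn12, a claudin linked to calcium passage that lacks the usual anchor for scaffold proteins, ranged from 7.1 to 7.4 in islets and from 6.6 to 7.7 in grafts. Its largest pregnancy difference was in female grafts, at -0.47 ± 0.20 (adjusted p = 0.205). There the states did not overlap, with 7.4 to 7.7 in NP and 6.9 to 7.1 in P12.5 hosts. Tjp1 ranged from 8.9 to 9.1 in islets and from 9.0 to 9.7 in grafts, with pregnancy differences between -0.27 and -0.10. Ocln ranged from 6.0 to 6.3 in islets and from 5.4 to 6.2 in grafts, with pregnancy differences between -0.17 and -0.025. None of these was called.

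**Figure D2:**
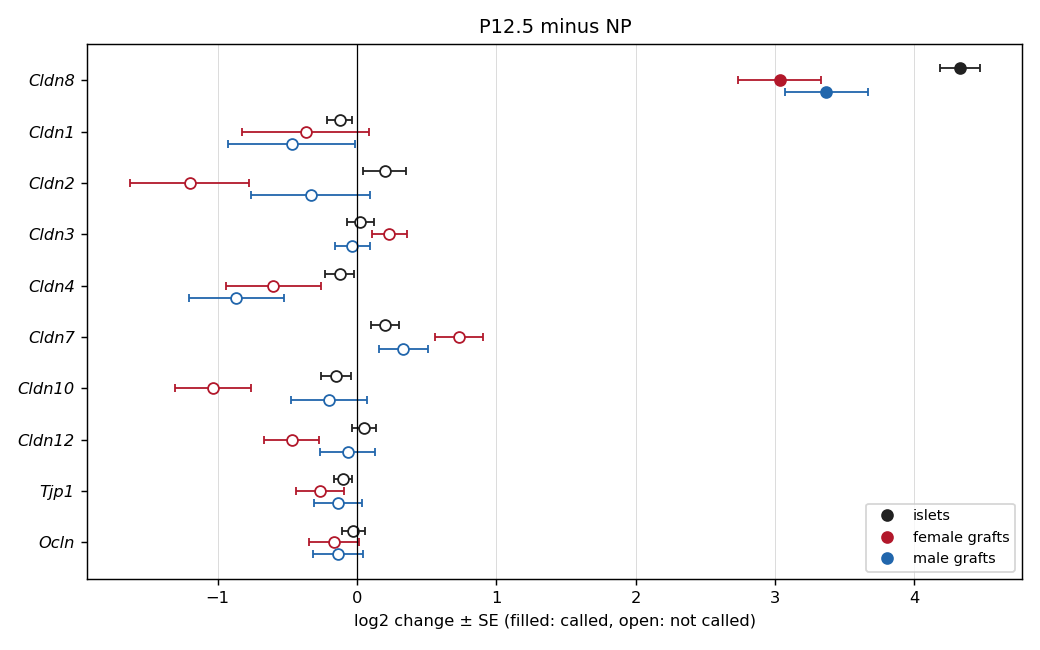
Log2 change from NP to P12.5 with its standard error (x axis) for each gene (y axis) in islets, female grafts and male grafts; filled points were called and open points were not. Cldn8 is the only filled row, at 4.33, 3.03 and 3.37, and the other 9 genes lie between -1.20 and 0.73.

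Whether transplantation itself goes with these genes was read from grafts minus islets within each state. Cldn1, Cldn2 and Cldn10 were higher in NP grafts of both donor sexes, Cldn1 and Cldn10 were also higher in P12.5 grafts of both, and Cldn8 was higher in NP female grafts. Of the 10 genes, 4 were called in NP female grafts, where 11% of all probe sets were called, and 3 in NP male grafts, where 11.2% were called. At P12.5 there were 2 in female grafts (4.05% of all probe sets) and 2 in male grafts (7.26%). These calls were toward higher levels in grafts, while Cldn7, as given above, was called lower in NP female grafts in some other settings. The comparisons with female and male grafts use the same islet arrays.

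Cldn1 was 2.44 ± 0.35 higher in NP female grafts than in NP islets (5.43-fold, adjusted p = 0.000145) and 2.54 ± 0.35 higher in NP male grafts (5.82-fold, adjusted p = 7.46e-05). At P12.5 the difference was 2.20 ± 0.35 for each donor sex (4.59-fold, adjusted p = 0.00084 and 0.000559). Cldn10 was higher by 2.02 ± 0.22 and 1.49 ± 0.22 in NP female and male grafts (adjusted p = 1.43e-05 and 0.000123), and by 1.14 ± 0.22 and 1.44 ± 0.22 at P12.5 (adjusted p = 0.00382 and 0.000366). Cldn2 was higher by 1.85 ± 0.34 in NP female grafts (adjusted p = 0.000929) and by 1.42 ± 0.34 in NP male grafts (adjusted p = 0.00602). At P12.5 the Cldn2 differences of 0.45 and 0.88 were not called (adjusted p = 0.449 and 0.0907), and the male difference was 1.25 and called without P12.5 male array 2 (adjusted p = 0.0198).

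Cldn8 was 1.03 ± 0.25 higher in NP female grafts than in NP islets (2.05-fold, adjusted p = 0.00544) and 0.37 ± 0.25 higher in NP male grafts, which was not called. The NP male value rested on array 1 at 4.7, and without it the difference was 0.70 and was called (adjusted p = 0.0377). At P12.5 the differences had the other sign, at -0.26 ± 0.25 in female and -0.59 ± 0.25 in male grafts, and neither was called. The response of female grafts to pregnancy was smaller than that of islets by 1.29 on the log2 scale, a difference that did not pass (-1.29 ± 0.35, adjusted p = 0.146). For this interaction limma called 0 of the 10 genes and 0.0507% of all probe sets. An unadjusted p under 0.05 was found for 5 of the 10, beside 14.1% of all probe sets.

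**Figure D3:**
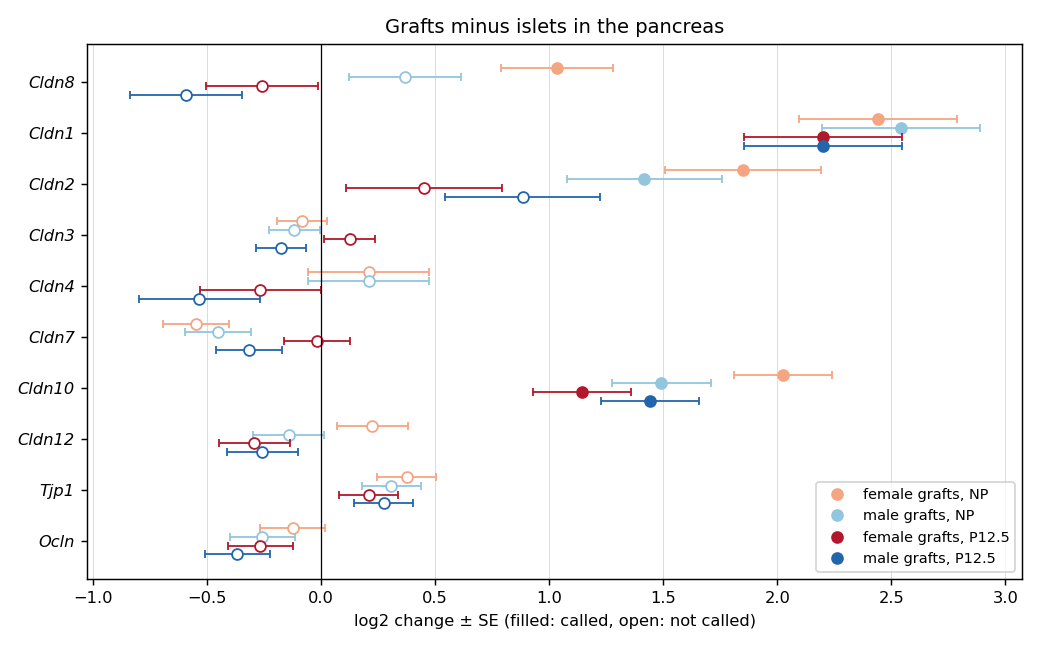
Log2 difference of grafts minus islets with its standard error (x axis) for each gene (y axis), for female and male grafts in the NP and the P12.5 state; filled points were called. Cldn1 and Cldn10 are filled in all 4 comparisons, Cldn2 in both NP comparisons and Cldn8 in NP female grafts.

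Kidney transcripts were present in the grafts and differed between them. The mean of 45 kidney markers (20 of the proximal tubule and 25 of the distal nephron and collecting duct) was 5.54 to 5.72 on the islet arrays. It was 7.08 to 7.66 in NP female grafts, 5.86 to 6.73 in P12.5 female grafts, 6.11 to 7.26 in NP male grafts and 6.21 to 7.5 in P12.5 male grafts. The female NP and P12.5 grafts did not overlap in this mean. Of the 20 proximal markers, 17 were called higher in NP grafts of each donor sex, 4 in P12.5 female and 13 in P12.5 male grafts. Of the 25 distal markers, 11 and 7 were called higher in NP female and male grafts, and 4 and 8 at P12.5, with 1 called lower in P12.5 male grafts. Of all probe sets, 11% and 11.2% were called in NP female and male grafts minus islets, and 4.05% and 7.26% at P12.5.

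The segments were unequally represented. Slc34a1, the phosphate transporter of the proximal tubule, lay between 5.8 and 6.1 in islets and between 7.0 and 10.7 in grafts. Slc12a3, the sodium chloride transporter of the distal convoluted tubule, lay between 5.7 and 6.2 in islets and between 6.6 and 10.1 in grafts. Aqp2, the water channel of the collecting duct, lay between 6.5 and 6.8 in islets and between 6.4 and 7.0 in grafts, which overlapped. Scnn1g, a sodium channel subunit of the same segment, lay between 6.8 and 7.4 in islets and between 6.5 and 7.8 in grafts. Cldn8 is known from the distal nephron as well, where Slc12a3 was higher on all graft arrays than on all islet arrays. The part of kidney in the Cldn8 level of grafts was not tested.

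Cldn8 was high at P12.5 on arrays with and without kidney signal. P12.5 islets, which carry no graft and had kidney means of 5.54 to 5.66, had Cldn8 at 9.0 to 9.6. The P12.5 grafts with the lowest kidney means were female array 2 (5.86) and male array 2 (6.21), and they had Cldn8 at 9.1 and 8.9. The NP female graft with the highest kidney mean of all arrays (7.66) had Cldn8 at 6.1, above the NP islets (4.8 to 5.2). The NP graft with the lowest kidney mean, male array 1 (6.11), had Cldn8 at 4.7. Whether kidney signal adds to Cldn8 in NP grafts was not tested. With the kidney mean per array as a covariate the pregnancy difference of Cldn8 was 3.23 ± 0.37 in female grafts (adjusted p = 0.0342), 3.34 ± 0.30 in male grafts (adjusted p = 0.00297) and 3.29 ± 0.23 over both (adjusted p = 0.000301). With the proximal and distal means as separate covariates the size was the same and the call was lost in female grafts alone (3.24 ± 0.39, adjusted p = 0.0736). NP and P12.5 female grafts did not overlap in kidney mean, so their adjusted values rest on a slope carried across that gap.

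Within grafts, Cldn2 and Cldn10 did move with the kidney markers. The slope on the kidney mean within the 4 graft groups was 1.05 ± 0.16 log2 per log2 for Cldn2 (adjusted p = 0.0209) and 0.64 ± 0.11 for Cldn10 (adjusted p = 0.0489). These were 2 of the 10 genes, where 0.372% of all probe sets passed. For Cldn8 the slope was 0.22 ± 0.24 (adjusted p = 1) and it turned to -0.12 without NP male array 1. The Cldn10 call was lost on leaving out any 1 of 11 of the 12 graft arrays, and the Cldn2 call without NP male array 1, P12.5 male array 1 or P12.5 male array 2 (adjusted p = 0.148, 0.0851 and 0.151). Both slopes stayed positive throughout, from 0.57 to 0.70 for Cldn10 and from 0.83 to 1.15 for Cldn2.

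The arrays show the same relation in their values. The 3 grafts with the lowest kidney means were P12.5 female array 2 (5.86), NP male array 1 (6.11) and P12.5 male array 2 (6.21), and Cldn2 read 5.0, 5.1 and 5.1 there, close to the islets. On the other 9 graft arrays Cldn2 read 5.6 to 7.0. Cldn10 read 5.5, 6.0 and 5.6 on those 3 arrays and 5.9 to 7.1 on the others. With the kidney mean as a covariate the pregnancy difference of Cldn2 in female grafts moved from -1.20 to -0.26 ± 0.24, and that of Cldn10 from -1.03 to -0.46 ± 0.17. NP and P12.5 female grafts did not overlap in kidney mean, so these values rest on a slope carried across that gap. They do not compare the states at the same kidney mean. In male grafts the same covariate moved Cldn2 from -0.33 to -0.47 ± 0.20 and Cldn10 from -0.20 to -0.28 ± 0.14, away from 0.

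By segment, the slopes on the proximal mean were 0.66 ± 0.087 for Cldn2 (adjusted p = 0.00629) and 0.41 ± 0.06 for Cldn10 (adjusted p = 0.0133), the 2 of 10 genes called beside 0.4% of all probe sets. On the distal mean limma called 0 of the 10 genes and 0.0113% of all probe sets, with Cldn2 and Cldn10 as the 2 at an unadjusted p under 0.05. For Cldn8 the slopes were 0.13 ± 0.15 on the proximal and 0.39 ± 0.42 on the distal mean.

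**Figure D4:**
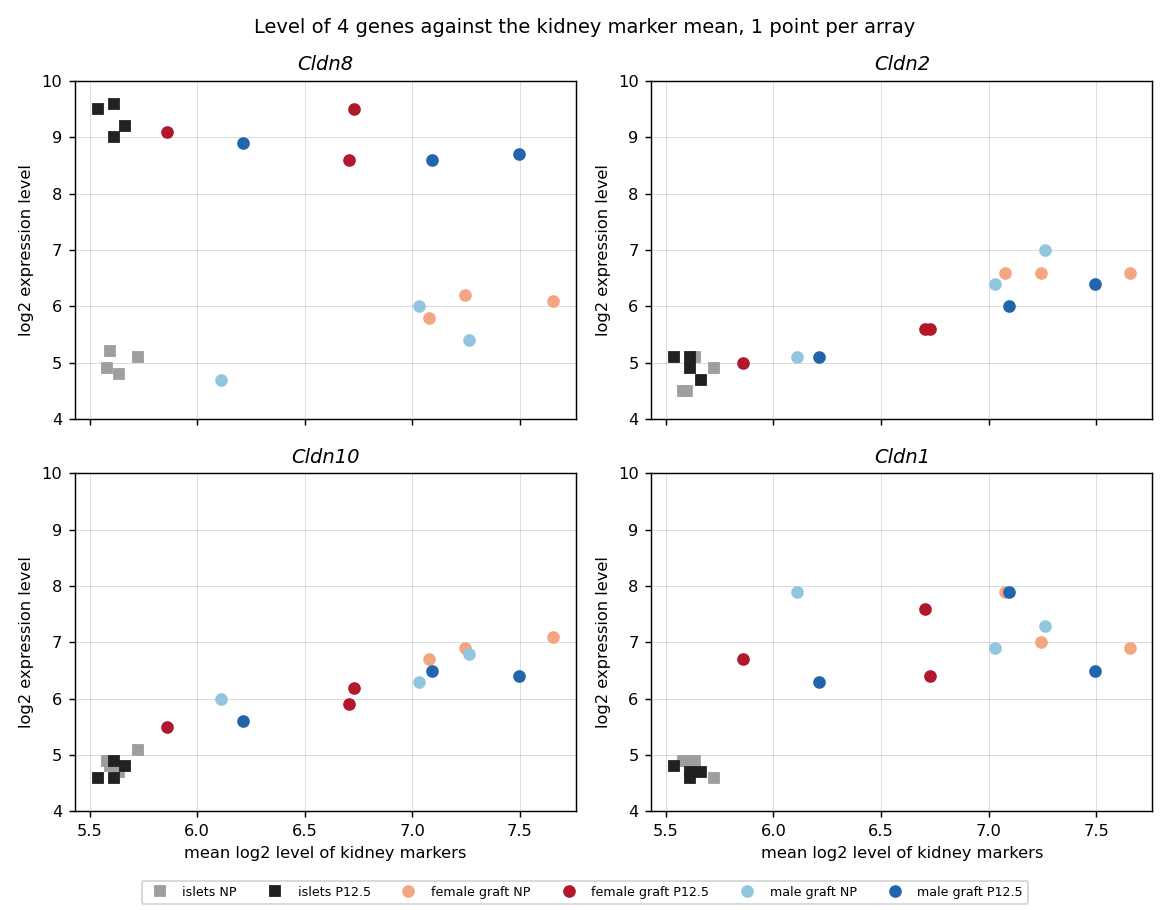
Log2 level of Cldn8, Cldn2, Cldn10 and Cldn1 (y axes) against the mean log2 level of 45 kidney markers (x axes), 1 point per array. Cldn2 and Cldn10 are higher on grafts with more kidney signal, whereas Cldn8 is higher on all P12.5 arrays than on all NP arrays. Cldn1 is high in grafts across the whole range from 5.86 to 7.66. NP and P12.5 female grafts do not overlap in kidney mean, so their states cannot be compared at the same kidney mean.

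Cldn1 did not follow the kidney mean (slope -0.11 ± 0.38, adjusted p = 1) but followed stromal and mesothelial markers, whose mean was 6.45 to 6.74 in islets and 8.26 to 10.07 in grafts. Of the 11 markers, 9 or 10 were called higher in grafts in each of the 4 comparisons with islets. There 4.05% to 11.2% of all probe sets were called. The slope of Cldn1 on the stromal and mesothelial mean was 1.05 ± 0.21 (adjusted p = 0.0266), and Ocln had the opposite sign at -0.39 ± 0.09 (adjusted p = 0.0446). These 2 of 10 genes stand beside 3.32% of all probe sets. Both slopes were added after the data had been examined, and single arrays were not left out for them. P12.5 male array 3 had the highest stromal mean (10.07), with Cldn1 at 7.9 and Ocln at 5.4. Cldn8 had a slope of -0.50 ± 0.20 on the stromal mean (adjusted p = 0.224). With that mean as a covariate its pregnancy difference was 3.09 in female and 3.57 in male grafts.

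The same 2 genes were called on the mean of 12 islet markers, with Cldn1 at -2.97 ± 0.61 (adjusted p = 0.0218) and Ocln at 1.18 ± 0.23 (adjusted p = 0.017), beside 5.04% of all probe sets. They were called again on the mean of 5 glomerulus markers, where Cldn1 had 2.27 ± 0.52 (adjusted p = 0.0334) and Ocln -0.89 ± 0.20 (adjusted p = 0.0316), beside 5% of all probe sets. These marker means share the 12 graft arrays, so the slopes are not independent of each other. On the endothelial, immune and ductal means limma called 0 of the 10 genes, beside 0.155%, 0.786% and 0% of all probe sets. At an unadjusted p under 0.05 were 3, 4 and 0 of the 10 genes. For slopes no share of all probe sets at that level is given, so these counts have no background to be read against. On the ductal mean the slope of Cldn4 was 1.21 ± 1.03 and that of Cldn7 0.56 ± 0.53.

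Markers of other cells also differed between grafts and islets. The mean of 13 acinar markers was 8.05 to 10.36 in islets and 5.04 to 5.42 in grafts, and all 13 were called lower in each of the 4 comparisons. There 4.05% to 11.2% of all probe sets were called. Krt19, a keratin of duct and mesothelium, lay between 5.2 and 5.6 in islets and between 6.6 and 9.3 in grafts, and the ductal mean of 7 genes was 6.93 to 7.17 and 6.96 to 7.66. The mean of 9 immune markers was 5.73 to 6.0 in islets and 7.09 to 8.29 in grafts. The endothelial mean was 7.46 to 7.69 and 6.33 to 7.87. The part of these cells in the graft differences of Cldn1, Cldn2, Cldn8 and Cldn10 was not tested.

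**Figure D5:**
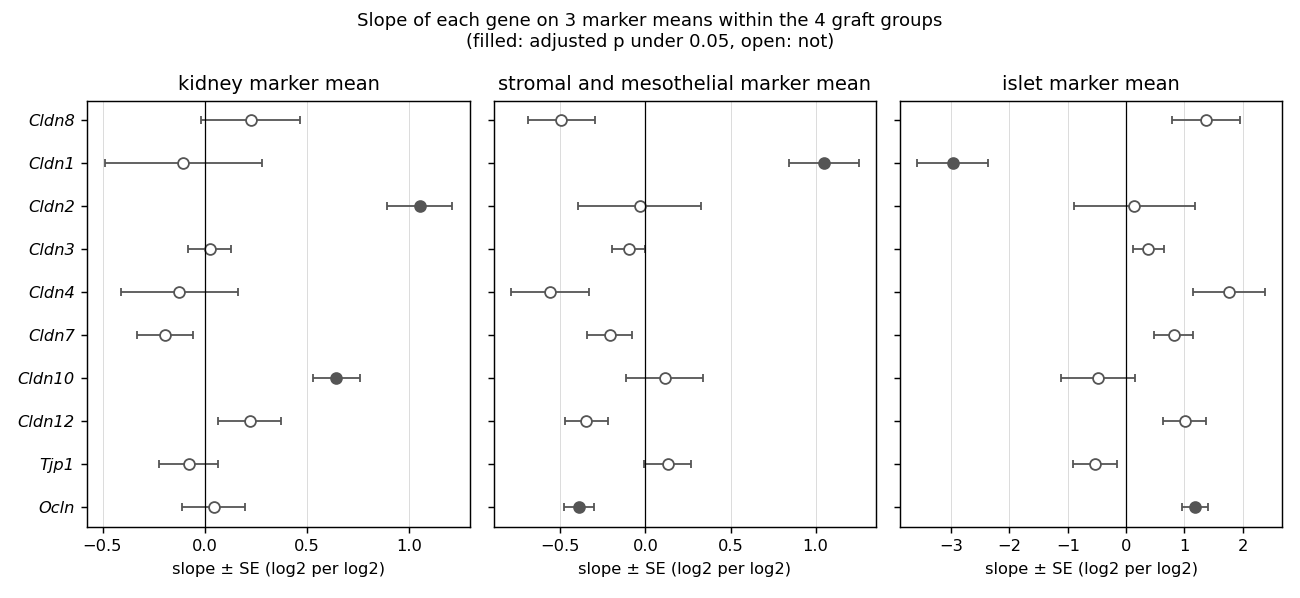
Slope of each gene (y axis) on the array means of kidney, stromal and mesothelial, and islet markers (x axes, log2 per log2, with standard errors) within the 4 graft groups; filled points had an adjusted p under 0.05. Cldn2 and Cldn10 are filled for kidney, and Cldn1 and Ocln for stroma and, with the opposite sign, for islet markers.

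No other gene of the junction lists was called with pregnancy. Of 15 further claudins, 28 further tight junction genes, 14 genes that regulate claudins or epithelial state and 9 adherens junction genes, limma called 0 in each of the 4 pregnancy comparisons, where the shares of all probe sets called were 0.724%, 1.7%, 0.932% and 3.96%. At an unadjusted p under 0.05 there were 1, 4, 3 and 3 genes of the 4 lists in islets, 2, 3, 3 and 0 in female grafts, 4, 2, 1 and 0 in male grafts, and 4, 9, 3 and 1 over both donor sexes. The shares of all probe sets at that level were 11.8%, 21.2%, 19.5% and 30.9%. The median change of the further claudins was -0.05 in islets, while it was 0.10 in female and 0.17 in male grafts, beside 0, 0.033 and 0 for all genes.

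The largest pregnancy differences in those lists were small beside that of Cldn8. Among further claudins they were 0.35 ± 0.084 for Cldn23 in islets (adjusted p = 0.1), 0.47 ± 0.16 for Cldn13 in female grafts (adjusted p = 0.138) and 0.57 ± 0.36 for Cldn5, the claudin of endothelium, in male grafts (adjusted p = 0.408). Among further tight junction genes they were 0.30 ± 0.093 for the polarity gene Crb3 in islets, 0.47 ± 0.11 for Ybx3, which encodes a transcription factor that binds ZO-1, in female grafts, and 0.57 ± 0.30 for Ildr2, of the angulin family at tricellular junctions, in male grafts. Among regulators they were 0.38 ± 0.08 for Epcam in islets (adjusted p = 0.0642), -0.67 ± 0.35 for the membrane protease gene Prss8 in female grafts and -0.40 ± 0.20 for the repressor gene Snai2 in male grafts. Over both donor sexes the largest among further claudins was Cldn13 at 0.47 ± 0.12 (adjusted p = 0.0264). Among regulators it was the protease gene St14 at 0.40 ± 0.088 (adjusted p = 0.0175). Both were below the fold minimum, and so was Cldn18 at 0.33 ± 0.092 (adjusted p = 0.0372). Cldn13 lay close to the floor of the array in every group (means 4.2 to 5.08), so its differences are not exact sizes.

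Between grafts and islets a few of these genes were called. Cgnl1, which encodes the junction protein paracingulin, was higher by 1.93 ± 0.34 in NP grafts of each donor sex and by 1.79 and 2.09 in P12.5 female and male grafts. Zeb2, a repressor of epithelial genes, was higher by 1.45 and 1.68 in NP and by 1.43 and 1.77 in P12.5 female and male grafts. Ildr2 was higher by 0.79 and 0.69 in NP and by 1.35 and 1.38 in P12.5 grafts of the same donor sexes. Cldn15, a pore-forming claudin of the intestine, was higher by 0.73 and 0.67 in NP and by 0.93 and 1.10 in P12.5 grafts.

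The calls in fewer comparisons were Cldn13, lower by 0.83 and 0.63 in NP female and male grafts (-0.83 ± 0.14 and -0.63 ± 0.14), and Esam, an adhesion gene of endothelium, at -0.64 ± 0.18 and -0.78 ± 0.18 in the same groups. Cldn13 lay close to the floor of the array in islets and grafts alike (group means 4.2 to 5.08). F11r, which encodes the adhesion molecule JAM-A, and Prss8 were higher in NP female grafts alone (0.60 ± 0.16 and 0.96 ± 0.27), and Snai2 in NP male grafts alone (0.78 ± 0.16). None of these genes was called between male and female grafts. In NP female grafts the calls of Cldn15, F11r, Ildr2 and Prss8 were lost without female array 1 (0.55, 0.45, 0.62 and 0.73), those of Cldn15 and F11r also without single other arrays, and that of Esam without female array 3 (-0.42). In NP male grafts the calls of Cldn15 and Ildr2 were lost on leaving out any of 6 and any of 5 of the 7 arrays, and that of Cldn13 without male array 2 or 3 (-0.57 each). At P12.5 the call of Cldn15 in female grafts was lost on leaving out any of 4 of the 7 arrays. Of the further claudins, 2 of 15 were called in NP female grafts, 1 higher and 1 lower, near the background of 11% of all probe sets, with a median of -0.30 against -0.075 for all genes. No adherens junction gene was called there, where 2 of 9 had an unadjusted p under 0.05 beside 40.8% of all probe sets, and Ctnna1, which encodes alpha-catenin, had the largest difference at 0.32 ± 0.083 (adjusted p = 0.00842, below the fold minimum).

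Over the 20 arrays, the 5 genes whose levels followed Cldn8 most closely were Ivd, an enzyme of leucine breakdown (Pearson's r = 0.979), Chgb, a protein of secretory granules (0.972), Tmem255a (0.958), Tph1, the enzyme of serotonin synthesis (0.954), and Kirrel3os (0.952). The points share the pregnancy and graft groups, so these are descriptions across 20 arrays. Ivd and Tph1 belong with Cldn8 to the study's pregnancy signature, chosen for a rise at P12.5. Their high r with Cldn8 is therefore not independent of that choice. For Cldn1 the closest were Pdgfra, a receptor gene of stromal cells that also stands in the stromal list, and Nr2f2 (r = 0.982 and 0.981). For Cldn2 they were Slc47a1, a transporter of organic cations, and Pter (0.978 and 0.977), and for Cldn10 they were Gcnt1 and Nox4 (0.987 and 0.976). Cldn3, whose level varied least among the claudins, had the lowest values of its closest genes, Sil1 and Tpst2 (0.766 and 0.764).

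The closest genes of the other members were Ociad2 and Zkscan16 for Cldn4 (r = 0.923 and 0.922), Ndufb9 and Etnk1 for Cldn7 (0.942 and 0.939), and Olfm3 and Eral1 for Cldn12 (0.896 and 0.875). For Tjp1 they were Etl4 and Smg1 (0.937 and 0.924), and for Ocln they were Mblac2 and Kifbp (0.939 and 0.930). None of the 10 genes was among the closest genes of another.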

How the data were processed

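Total RNA of 20 samples was hybridised to Affymetrix MoGene 1.0 ST arrays. The authors deposited 1 log2 level for each probe set and array. They made it from raw array files by robust multichip analysis (background adjustment, quantile normalization and summary per probe set) in the aroma.affymetrix package under R 2.12.2, and values are rounded to 1 decimal, so small changes are close to the rounding step. Gene symbols came from the platform annotation: 21789 of 35511 probe sets carry 1 symbol, 1621 several and 12101 none, and a Cldn10 probe set shared with another gene was not used. Genome coordinates were left out because the build is not given in the sources used here. Precision is set by the number of arrays, and the standard error of a log2 change had a median over probe sets of 0.098 for islets, 0.151 for grafts of 1 donor sex and 0.131 for grafts minus islets.

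Tests used limma 3.58.1 under R 4.3.3 (functions lmFit and eBayes, with the group as only term), with islets fitted on their 8 arrays, graft comparisons on the 12 graft arrays and grafts against islets on all 20. Two-sided p-values were adjusted after Benjamini and Hochberg over 35511 probe sets. Slopes came from the graft fit with a marker mean per array as an added term, with no fold minimum. The code was tested on simulated data. The 10 members, the marker lists and the junction lists were chosen with earlier results of these data known. Named beside the members were list genes called in any comparison, the largest pregnancy difference of each list, and the genes of highest Pearson's r with Cldn8 (5) or another member (2). Alternatives were array medians, renewed quantile normalization, a filter (group mean above 6), an intensity trend, all 20 arrays in 1 fit, the mean of a gene's probe sets, a replicate block, kidney covariates and single arrays left out. Slopes on marker means other than kidney, stromal, endothelial and immune covariates, and male grafts minus islets were added after the data had been examined.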

Additional observations from a re-analysis of the deposited data

Results flagged for a closer look

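In groups of 4 arrays (the islets), 7 of 26 sets of values had 1 array set apart from the other 3 by more than Dixon's test allows, where chance sets apart about 1 in 20. In 6 of them the value differs by few steps of the rounding to 1 decimal. In NP islets these were Cldn1 at 4.6 and Cldn7 at 8.1 on array 4, and Tjp1 at 9.1 on array 2. In P12.5 islets they were Cldn3 and Cldn12, each at 7.4 on array 3, and Tjp1 at 9.0 on array 2. The seventh was the mean of the islet markers on NP array 1, at 11.208 against up to 11.592 on the other NP arrays, the same array whose highest value was 13.4.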

How the results depend on the processing

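The rise of Cldn8 kept its direction under every alternative run, with 4.33 to 4.35 in islets, 3.00 to 3.24 in female, 2.77 to 3.70 in male and 2.92 to 3.40 over both kinds of grafts, and its call was lost once, in female grafts with the proximal and distal kidney means as 2 covariates (3.24, adjusted p = 0.0736). Leaving out single arrays gave 4.23 to 4.43, 2.82 to 3.27, 3.03 to 3.68 and 3.03 to 3.36 with no call lost. The replicate numbers did not pair the samples (correlations of same-numbered deviations between -0.24 and 0.23). With the replicate block Cldn8 changed by 4.33, 3.03, 3.37 and 3.20 and stayed called, 2 of the 10 genes instead of 1 were called over both kinds of grafts, and calls over all probe sets went from 257 to 132 in islets, 602 to 266 in female and 331 to 124 in male grafts. 

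In female grafts P12.5 minus NP, 3 of the 10 genes were called with the filter, 4 with all 20 arrays in 1 fit, 0 with the 2 kidney covariates and 2 each with the stromal, endothelial and immune covariates. Over both kinds of grafts the count was 3 with array medians subtracted, 2 with the filter, 4 with all 20 arrays, 3, 2 and 2 with the stromal, endothelial and immune covariates, 2 by adjusted p alone, and 1 to 3 leaving out single arrays (2 without P12.5 array 3 of either donor sex, 3 without NP male array 1). The genes added were Cldn2, Cldn4, Cldn7 and Cldn10, and Cldn1 with the stromal covariate. For P12.5 female grafts minus islets the filter left 1, since it drops genes with low means such as Cldn10, and it likewise gives no value for Cldn1 in islets. The kidney slope was called for 0 genes with the distal list, 1 with array medians subtracted, 1 with renewed quantile normalization, and 0 to 2 leaving out single arrays (0 without NP male array 1, P12.5 male array 1 or P12.5 male array 2, and 1 without any other except NP male array 3, where it was 2).

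Signs turned for differences that were not called. With the stromal and endothelial covariates male grafts had 0.007 and 0.003 for Cldn3, 0.076 and 0.13 for Cldn12, and 0.027 and 0.13 for Ocln, and Ocln had 0.004 over both kinds of grafts with the endothelial covariate. With the immune covariate Cldn1 had 0.38 in male grafts. Leaving out single arrays, P12.5 minus NP ranged from -0.87 to 0.083 for Cldn2, -0.10 to 0.067 for Cldn3, -0.38 to 0.083 for Cldn10, -0.33 to 0.067 for Cldn12 and -0.27 to 0.033 for Ocln in male grafts, and from -0.025 to 0.11 for Cldn3, -0.008 to 0.092 for Cldn12 and -0.067 to 0.033 for Ocln in islets. Likewise Cldn4 and Cldn7 ranged from -0.50 to 0.15 and -0.10 to 0.10 in P12.5 female grafts minus islets, Cldn12 from -0.28 to 0.12 in NP male grafts minus islets, Cldn1 from -0.59 to 0.075 in the interaction with transplantation, and the kidney slope of Cldn8 from -0.12 to 0.46. Without a turn of sign, Cldn8 ranged from 0.05 to 0.70 in NP male grafts minus islets and was called without NP male array 1. The causes were not tested. Among junction genes outside the 10, calls of Cldn15, Ildr2, F11r, Esam, Prss8 and Cldn13 in grafts minus islets were lost without single arrays in at least 1 comparison. Under the replicate block those of F11r in NP female grafts (0.54), Cldn15 (0.68) and Ildr2 (0.72) in NP male grafts were lost too, and that of Cldn7 in NP female grafts was gained (-0.62). Renewed quantile normalization ended those of F11r (0.55) and Cldn13 (-0.53, NP male), and array medians that of Cldn13 (-0.55).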
